A study of Mus musculus with 4 samples.

Results

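The transcription factors that drive the epithelial-to-mesenchymal transition (EMT) include Zeb1 itself, and a Zeb1 ChIP-seq list therefore holds both a factor and the genes of its partners. The set described here comprised 9 genes, Zeb1, Zeb2, Snai1, Snai2, Snai3, Twist1, Twist2, Tcf3 and Tcf4. Their peaks were taken as all rows of the deposited Zeb1 peak list whose gene symbol was one of these names. All 9 genes had at least 1 peak, and together they held 18 of the 17435 peaks and 9 of the 12271 genes named in the list. Chromatin came from D3 mESC, an established mouse embryonic stem cell line, grown without feeder cells in GS, which is serum-free N2B27 medium plus LIF at 20 ng per mL, PD0325901 at 1 μM to block MEK and CHIR99021 at 3 μM to block GSK-3. It was cross-linked with 1% formaldehyde and sheared to about 200 bp. The labels give 3 Zeb1 ChIP libraries, made with 8 μg of the anti-Zeb1 antibody H-102, and 1 input library made with no antibody, all from cells in GS. The list gives each peak 1 authors' mean of Zeb1 ChIP (treatment) reads, 1 of input reads and 1 mean enrichment, which is the ratio of treatment over input after the authors' normalization for mapped reads. The paper's methods say that values per sample were averaged for each unified peak, and the number of samples behind a given mean is not stated. The list holds no value per library, so no SD or test accompanies the values of a peak, and all comparisons are descriptions of 1 list.

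In EMT, epithelial cells loosen their junctions and gain motility. The factors of the Snail family (Snai1, Snai2 and Snai3) and of the Zeb family (Zeb1 and Zeb2) are zinc-finger proteins that bind the E-box CACCTG, which reads CAGGTG on the other strand, and repress epithelial genes such as Cdh1. Twist1 and Twist2 are basic helix-loop-helix proteins that bind E-boxes of the general form CANNTG as dimers with the E proteins, 2 of which are the products of Tcf3 (E2A, with the splice forms E12 and E47) and Tcf4 (E2-2). Zeb factors and the miR-200 miRNAs repress one another, and Snail factors act upstream of Zeb1 in many cells. Whether Zeb1 occupies the genes of its fellow factors bears on how this network is wired in a pluripotent cell.

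Zeb1 peaks lay at the promoters of most of the genes, and the highest enrichment at a promoter was at Snai1. All 9 genes had an assigned peak, where 51.1% of the 21887 protein-coding genes of the reference had one. A peak centre lay within 5 kb of the TSS in 7 of the 9, where 43.2% of protein-coding genes had such a peak, and the exceptions were Zeb1 and Snai2. A peak did cover the TSS of Zeb1, but the list assigns it to the antisense neighbour Gm10125. Counted by any curated RefSeq TSS of the gene and regardless of the assigned symbol, 8 of the 9 had a peak within 5 kb, where 51.5% of protein-coding genes with a curated TSS had one, and Snai2 was the exception. Snai1, Tcf3 and Tcf4 had 3 peaks each, and at least as many were assigned to 8.60% of the protein-coding genes with a peak. Zeb1, Snai3 and Twist1 had 2 peaks each, and Zeb2, Snai2 and Twist2 had 1.

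The enrichment of the 18 peaks ranged from 2.05 to 14.6. Their median was 5.55, beside 6.5 over all peaks, and 8 of the 18 were above that median. Of the 18 peaks, 9 lay within 5 kb of the TSS, where 61.4% of all peaks did. These 9 had a median enrichment of 7.01, beside 6.74 for all peaks within 5 kb. The 9 peaks beyond 5 kb had a median of 4.9, beside 6 for all such peaks. Both groups held low and high values, with 4.4 at a Snai3 peak within 5 kb and 14.6 at a Twist1 peak beyond it. Treatment reads ranged from 25.5 to 111 with a median of 35, beside 47.4 over all peaks. Per kb of peak, 14 of the 18 had fewer treatment reads than the median peak of the list, which had 25.1. Among the 7 genes with a promoter peak, the highest promoter enrichment of a gene had a median of 7.1, beside 6.84 for the 9466 protein-coding genes with such a peak. The plot of enrichment by gene shows Snai1 and Tcf4 with the highest promoter values and Tcf3 and Snai3 with the lowest.

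**Figure D1:**
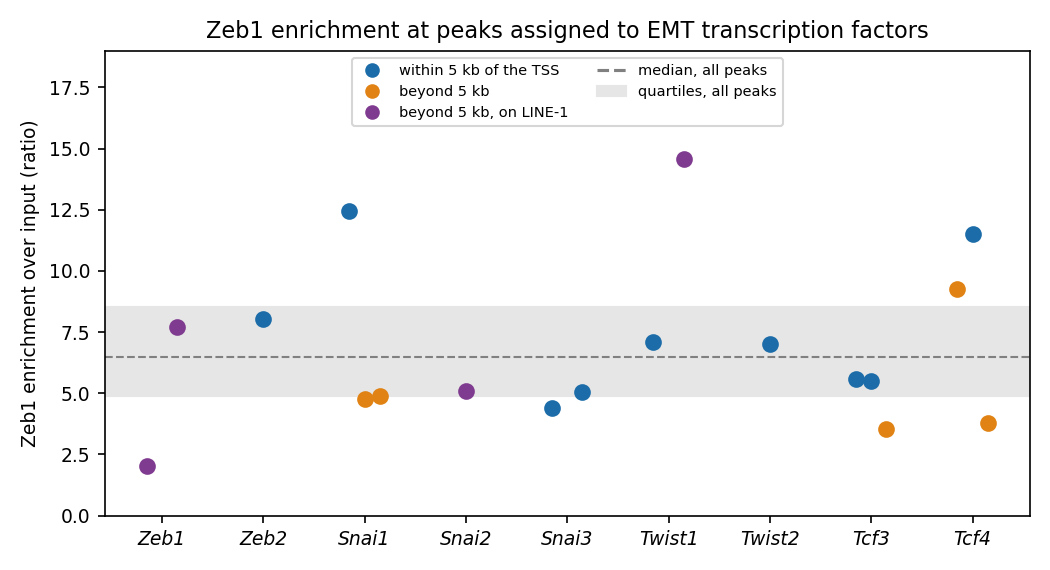
Enrichment of Zeb1 over input (y axis, the authors' mean ratio) for each of the 18 peaks assigned to the 9 EMT transcription factors (x axis), with 1 point per peak, coloured by distance to the TSS and by LINE-1. The dashed line is the median of all 17435 peaks (6.5) and the grey band spans their quartiles (4.91 and 8.53). The promoter peaks of Snai1 (12.4) and Tcf4 (11.5), the upstream peak of Tcf4 (9.25) and the LINE-1 peak of Twist1 (14.6) stand above the band.

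Snai1 encodes Snail, a zinc-finger repressor that starts EMT in the embryo at gastrulation. Its promoter peak, chr2:167537251-167539600 in mm10, had 111 treatment reads against 18.9 input reads and an enrichment of 12.4. Among all peaks, 93.6% had a lower enrichment and 95.1% had fewer treatment reads. Its centre lay 198 bp downstream of the TSS by the list and 230 bp by RefSeq, in intron 1 of 2, on a region the list annotates as a CpG island. The peak held 8 matches to CACCTG on either strand, or 3.4 per kb, and 96.2% of all peaks had fewer per kb. The 250 bases upstream of the TSS (chr2:167537945-167538194, plus strand, GRCm38.p6, from the RefSeq promoter table) lay wholly inside the peak and are shown for the match that starts 126 bases upstream of the TSS. Throughout, distances of the 18 peaks are those of the list unless RefSeq is named, and matches are placed from the RefSeq TSS. CACCTG is in capitals.
Snai1 promoter: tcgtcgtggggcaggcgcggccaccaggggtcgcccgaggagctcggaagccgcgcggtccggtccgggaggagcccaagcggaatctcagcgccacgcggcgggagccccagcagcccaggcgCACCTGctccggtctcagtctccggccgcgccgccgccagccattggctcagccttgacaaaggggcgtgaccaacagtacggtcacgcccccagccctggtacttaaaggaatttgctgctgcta
The promoter table gives 300 bases for each start site, and 20.2% of its 32851 promoters held CACCTG on either strand. It had entries for 5 of the 9 genes, Snai1, Twist1, Twist2, Zeb2 and Tcf3, with 8 promoters in all, and the Snai1 promoter was the only 1 of the 8 with a match.

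Both other Snai1 peaks lay downstream of the gene. The peak chr2:167558901-167560400 had its centre 21423 bp from the TSS, with 30.8 treatment and 13.8 input reads and an enrichment of 4.78. The peak chr2:167561651-167567050 had its centre 26123 bp from the TSS, with 69 treatment and 29.5 input reads and an enrichment of 4.9. The list places both in an intron of a long non-coding gene known by its Ensembl number only. The latter was the longest of the 18 peaks, with 5400 bp, and with 12.8 treatment reads per kb it had the lowest density among them. Only 2.48% of all peaks had fewer reads per kb. In this text the centre of a peak is the midpoint of its listed region, not a summit of reads. Both downstream peaks had a match to CACCTG close to that midpoint, 9 bp away in the nearer peak and 11 bp away in the farther one. The median over all peaks with a match was 244 bp. The central match of each downstream peak is shown with 30 bases on either side (chr2:167559609-167559674 and chr2:167564307-167564372, plus strand, GRCm38.p6).
Snai1 downstream, nearer: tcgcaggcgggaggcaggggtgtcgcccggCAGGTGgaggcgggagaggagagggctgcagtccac
Snai1 downstream, farther: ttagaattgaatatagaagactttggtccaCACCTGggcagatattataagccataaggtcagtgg

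Snai3 encodes Smuc, a further repressor of the Snail family. The gene is on the minus strand of Chr. 8 and had a peak at its TSS and another in its body. The peak chr8:122459851-122461800 covered the TSS, with its centre 133 bp upstream. It had 32.3 treatment and 13.7 input reads and an enrichment of 5.06. The peak chr8:122455501-122457900 had its centre 3992 bp downstream, in coding exon 2 of 3, with 46 treatment and 20.5 input reads and an enrichment of 4.4. Both values were low in the list, with 27% and 17.3% of all peaks below them. The peaks were rich in E-boxes all the same, with 6 and 5 matches to CACCTG, and 94.9% and 84.6% of all peaks had fewer per kb. The match nearest the centre lay 19 bp away in the promoter peak and 22 bp away in the exon peak. Shown on the strand of the gene are a match 267 bases upstream of the TSS (chr8:122460921-122460986) and the coding match in exon 2 (chr8:122456646-122456711, both minus strand, GRCm38.p6).
Snai3 promoter: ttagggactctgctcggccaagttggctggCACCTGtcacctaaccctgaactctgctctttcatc
Snai3 exon 2: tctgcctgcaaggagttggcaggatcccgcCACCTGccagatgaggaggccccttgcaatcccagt
A neighbouring peak, chr8:122451451-122452700, was assigned to the non-coding gene Gm20735 and lay 1504 bp beyond the 3′ end of Snai3, with 22 treatment and 9 input reads and an enrichment of 4.75. The region was dense in peaks. Within 50 kb of the Snai3 TSS there were 12, and 99.4% of protein-coding genes had fewer, with a median of 1.

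Snai2 encodes Slug, another factor of the Snail family. It was the gene of the set with no Zeb1 peak at or near its promoter by any count. Its 1 assigned peak, chr16:14729901-14731650, had its centre 24916 bp downstream of the TSS and outside the gene. It had 31.5 treatment and 12 input reads and an enrichment of 5.1, and 27.3% of all peaks were lower. The list places it on a LINE-1 element of the subfamily L1Md_F2. LINE-1 elements are mobile repeats with many near-identical copies in the mouse genome. With 42.6% GC the peak was among the most AT-rich of the list, where 5.39% of peaks had a lower GC content. Its matches to CACCTG lay to 1 side of the centre, the nearer one 346 bp away, and both are shown to set this repeat sequence beside the GC-rich promoter of Snai1 (chr16:14730231-14730462, plus strand, GRCm38.p6).
Snai2 LINE-1: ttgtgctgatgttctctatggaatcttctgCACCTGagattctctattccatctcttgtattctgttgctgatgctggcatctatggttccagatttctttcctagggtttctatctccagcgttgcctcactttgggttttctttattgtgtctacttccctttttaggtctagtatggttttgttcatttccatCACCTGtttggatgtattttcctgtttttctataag

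Twist1 encodes a basic helix-loop-helix factor of mesoderm and neural crest. Its promoter peak, chr12:33955451-33959150, spanned 3700 bp with its centre 371 bp upstream of the TSS. It had 73.1 treatment and 20.1 input reads and an enrichment of 7.1, and 58.4% of all peaks were lower. This peak held 0 matches to CACCTG over its whole length. It did hold 2 matches to the longer Zeb1 motif given as CNCACCTG, CNTACCTG, TNCACCTG or TNTACCTG, which allows TACCTG. The 250 bases before the TSS are shown as a promoter inside a Zeb1 peak with no CACCTG (chr12:33957421-33957670, plus strand, GRCm38.p6, RefSeq promoter table), and so nothing in them is in capitals.
Twist1 promoter: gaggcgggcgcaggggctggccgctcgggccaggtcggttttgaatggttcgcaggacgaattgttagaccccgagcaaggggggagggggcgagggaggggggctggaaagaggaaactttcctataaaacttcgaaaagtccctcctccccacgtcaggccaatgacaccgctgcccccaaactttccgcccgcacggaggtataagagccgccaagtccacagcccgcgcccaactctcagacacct
The other Twist1 peak, chr12:33999401-34000900, had the highest enrichment of the 18, 14.6, with 58.9 treatment and 9 input reads, and 96.4% of all peaks were lower. It lay 42479 bp downstream of the TSS on a LINE-1 element of the subfamily L1Md_A. Both of its matches to CACCTG, the nearer one 260 bp from the centre, are shown to compare this repeat with the L1Md_F2 element at Snai2 (chr12:33999646-33999923, plus strand, GRCm38.p6). Both matches read CAGGTG on this strand.
Twist1 LINE-1: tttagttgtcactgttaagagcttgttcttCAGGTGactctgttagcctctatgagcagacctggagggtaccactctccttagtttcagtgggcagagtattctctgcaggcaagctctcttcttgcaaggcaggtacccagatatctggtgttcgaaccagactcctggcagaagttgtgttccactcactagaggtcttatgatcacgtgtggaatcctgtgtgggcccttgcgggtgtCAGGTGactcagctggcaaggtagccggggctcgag

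Twist2, also called Dermo1, is the close relative of Twist1. Its 1 peak, chr1:91799801-91803200, was centred 23 bp downstream of the TSS by the list and 39 bp by RefSeq, in the 5′ UTR of exon 1 of 2. With 96 treatment reads against 27.4 input reads it had the second highest read number of the set, and 92.1% of all peaks had fewer. Its enrichment was 7.01, close to that of the Twist1 promoter, and 57.4% of all peaks were lower. Its 2 matches to CACCTG lay far from the centre, the nearer one 1126 bp away, and 98.2% of the peaks with a match had a nearer one. That match starts 1089 bases upstream of the RefSeq TSS (chr1:91800342-91800407, plus strand, GRCm38.p6).
Twist2 upstream: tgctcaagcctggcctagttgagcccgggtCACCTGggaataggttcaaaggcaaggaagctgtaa

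**Figure D2:**
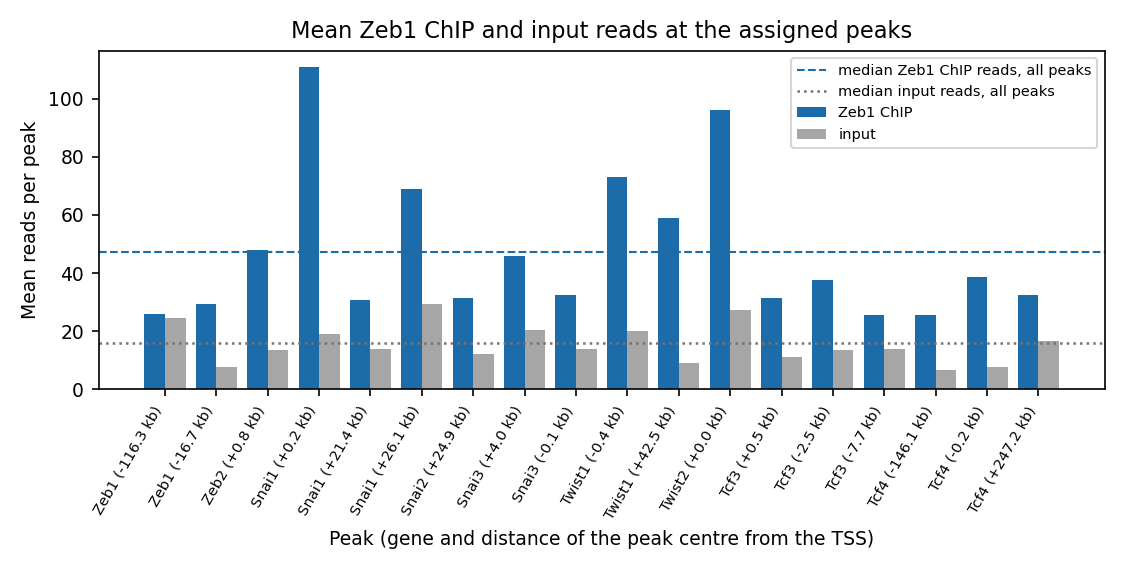
Mean Zeb1 ChIP reads (blue bars) and mean input reads (grey bars) at each of the 18 peaks, named by gene and by distance of the peak centre from the TSS. The lines give the medians of all peaks, 47.4 for Zeb1 ChIP and 16 for input. Snai1 (111) and Twist2 (96) have the highest Zeb1 ChIP reads. At the farther peak assigned to the gene Zeb1 both bars are nearly equal (26 and 24.5).

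Zeb2 encodes Sip1, the relative of Zeb1 that shares its zinc fingers and E-box. Its 1 peak, chr2:45108301-45110700, had 48 treatment and 13.5 input reads and an enrichment of 8.05, and 70.3% of all peaks were lower. RefSeq gives Zeb2 7 curated start sites on the minus strand. The peak covered 2 of them, and 6 of the 7 lay within 5 kb of its centre. The centre was 777 bp downstream of the start nearest to it, in intron 1 of 8, on an annotated CpG island with 60.7% GC. The 4 Zeb2 promoters in the table held no CACCTG, and neither CACCTG nor the longer Zeb1 motif occurred anywhere in the peak. Shown is the stretch of the promoter upstream of the covered start sites (chr2:45110378-45110527, minus strand, GRCm38.p6, RefSeq promoter table), with nothing in capitals since no match occurs.
Zeb2 promoter: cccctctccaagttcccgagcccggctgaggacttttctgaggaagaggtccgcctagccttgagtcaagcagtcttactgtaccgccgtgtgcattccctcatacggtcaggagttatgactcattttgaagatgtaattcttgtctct

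Zeb1 itself had 2 assigned peaks, and both were on LINE-1 elements of the subfamily L1Md_F2. The nearer, chr18:5574501-5575750, lay 16735 bp upstream of the TSS, in an intron of Gm10125, a non-coding gene that runs antisense from the Zeb1 promoter and is also called Zeb1os. The list also annotates it as the start of another gene, known by its Ensembl number only. It had 29.5 treatment and 7.5 input reads and an enrichment of 7.7. The farther, chr18:5474951-5476250, lay 116260 bp upstream, with 26 treatment and 24.5 input reads. Its enrichment of 2.05 was just above 2, the minimum required of a peak, below which the list holds none, and 0.0459% of all peaks were lower. The peak at the Zeb1 promoter was another one, chr18:5590801-5593850, which the list assigns to Gm10125 with its centre 112 bp downstream of that gene's TSS. It had 60.3 treatment and 19.3 input reads, an enrichment of 6.06, 4 matches to CACCTG and 62.1% GC, and its enrichment exceeded that of 42.9% of all peaks. This peak covered both curated start sites of Zeb1, with its centre 322 bp from the nearer one, in intron 1 of the longer form. The exon 1 of Gm10125 also lies under it, so the value belongs to a promoter region that both genes share. By the list's symbols Zeb1 appears without a promoter peak, while by position its promoter region was occupied at a level near the middle of the list.

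**Figure D3:**
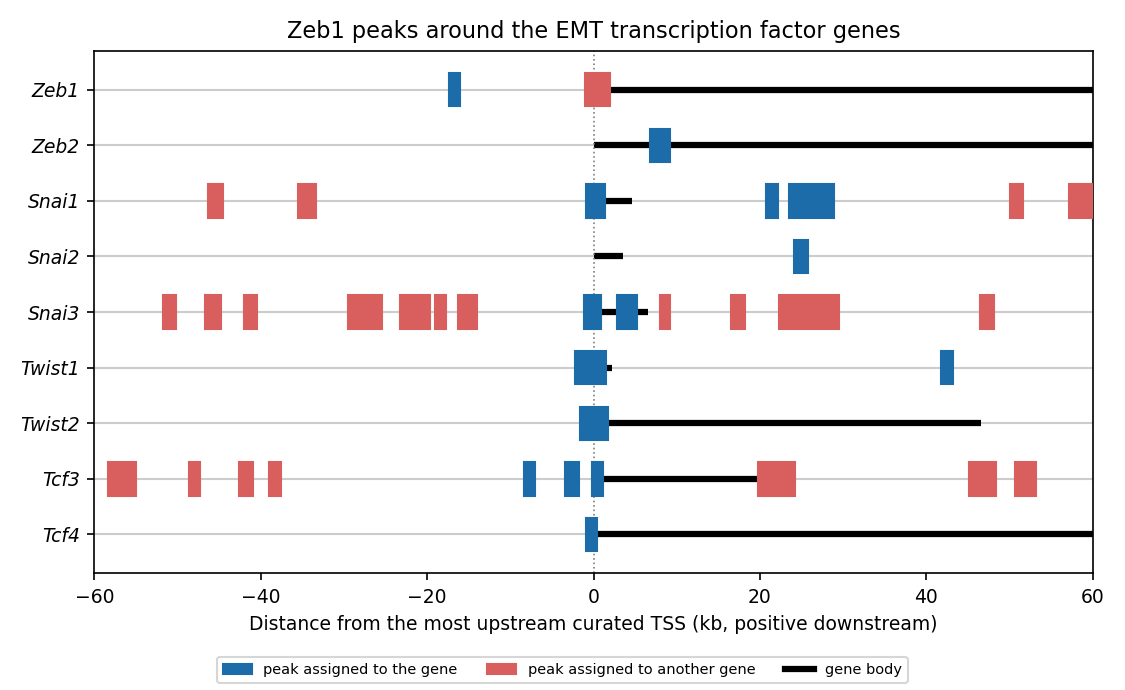
Zeb1 peaks within 60 kb of the most upstream curated TSS of each gene, drawn to scale in kb in the direction of transcription, with peaks assigned to the gene in blue, peaks assigned to another gene in red and the gene body in black. The TSS of Zeb1 lies under a peak assigned to another gene, Snai2 has no peak at its TSS, and Snai3, Tcf3 and Snai1 lie in the regions with the most peaks. The peaks of Zeb1 at 116260 bp upstream and of Tcf4 at 146117 bp upstream and 247179 bp downstream fall outside the range.

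The E proteins are widely expressed basic helix-loop-helix factors, the dimer partners of Twist and of many lineage factors, and the Id proteins hold them off DNA. In mESC the name Tcf3 needs care. The HMG-box repressor of the Wnt pathway that was long called Tcf3 in ES cells is Tcf7l1, and Tcf4 was likewise used for Tcf7l2. The symbols of the list refer to the E proteins, as the gene identifiers matched in the reference, and the peaks of Tcf7l1 and Tcf7l2 were not among the 18.

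Tcf3, on the minus strand of Chr. 10, had 3 assigned peaks of low enrichment. The peak chr10:80432501-80433800 covered the TSS with its centre 503 bp downstream, in intron 1, on a CpG island with 64% GC, and had 31.5 treatment and 11 input reads and an enrichment of 5.6. The peak chr10:80435351-80437050 lay 2547 bp upstream with 37.5 and 13.5 reads and an enrichment of 5.5. The peak chr10:80440701-80442050 lay 7722 bp upstream with 25.5 and 14 reads and an enrichment of 3.55, and 8.55% of all peaks were lower. A stronger peak lay at the other end of the gene. It spanned chr10:80409451-80413900, over the last exons of Tcf3, with its centre in an intron, 21960 bp downstream of the RefSeq TSS. It had 57.8 treatment and 13 input reads and an enrichment of 9.53. The list assigns it to the adjacent Uqcr11, a subunit of respiratory complex III. It held 10 matches to CACCTG, against 1, 2 and 0 in the 3 peaks assigned to Tcf3. In all, 8 peaks lay within 50 kb of the Tcf3 TSS, and 96.5% of protein-coding genes had fewer. The match nearest the centre of the peak 2547 bp upstream is shown on the strand of the gene, where it reads CAGGTG (chr10:80435830-80435895, minus strand, GRCm38.p6).
Tcf3 upstream: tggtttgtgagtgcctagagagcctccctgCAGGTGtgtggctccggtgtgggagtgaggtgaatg

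Tcf4 had a short promoter peak of high enrichment. The peak chr18:69343601-69344950 had its centre 217 bp upstream of a TSS, with 38.5 treatment and 7.5 input reads and an enrichment of 11.5. That was higher than the best promoter peak of 92.6% of protein-coding genes with one, while 31.6% of all peaks had fewer treatment reads. Over its 1350 bp this came to 28.5 treatment reads per kb, and 65.9% of all peaks had fewer per kb. The peak chr18:69197601-69199150 lay 146117 bp upstream, outside any curated gene, on an annotated CpG island, with 25.5 and 6.5 reads and an enrichment of 9.25. The peak chr18:69592001-69593800 lay 247179 bp downstream of the listed TSS, in an intron of the gene and at the start of a shorter Ensembl isoform, with 32.5 and 16.5 reads and an enrichment of 3.8.

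Across the set, 13 of the 18 peaks held CACCTG somewhere in the peak, where 82.1% of all peaks did. In the central 1000 bp it was 11 of 18, where 63.1% of all peaks held it, and in the central 300 bp 5 of 18, where 29.4% did. These shares were near those of the list. The 5 peaks with a match in the central 300 bp were the 3 of Snai1 and the 2 of Snai3, and none of the 13 peaks of the other genes had one there. In the 8 of these 13 with a match anywhere, the nearest was between 169 and 1126 bp from the centre. The peak of Snai2, the remaining Snail gene, was among these 13. This grouping by gene was noticed after the values were seen. Zeb2, the Twist1 promoter, the farther Zeb1 peak, 1 peak of Tcf3 and 1 of Tcf4 held none.

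**Figure D4:**
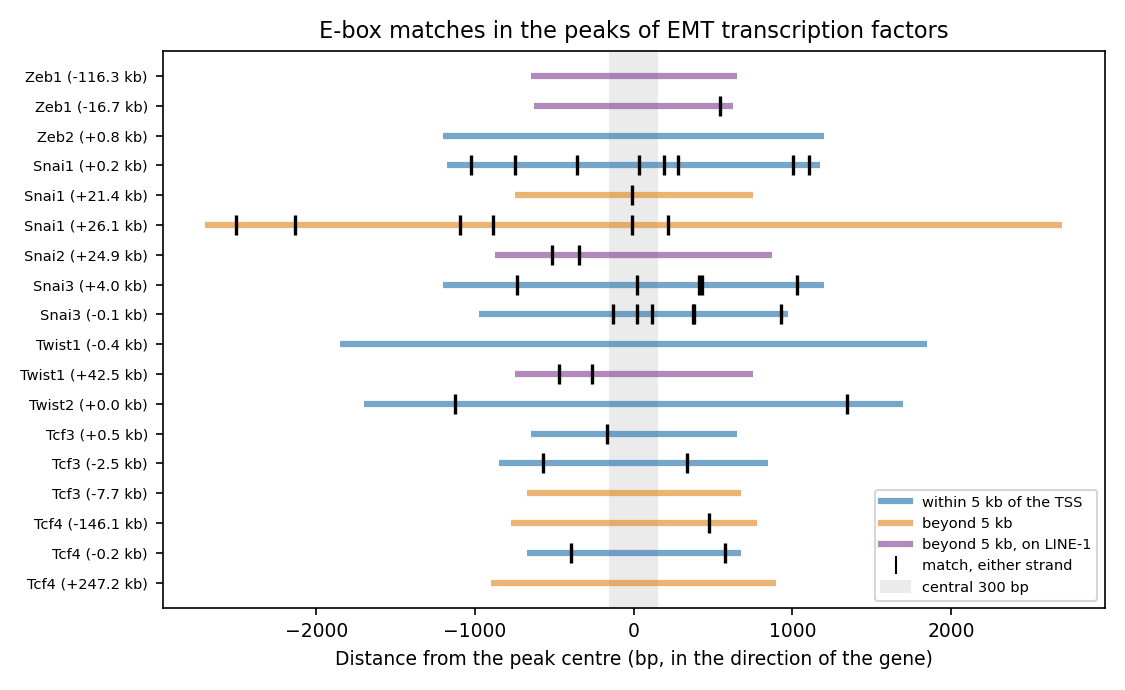
Matches to CACCTG on either strand (black ticks) in each of the 18 peaks, drawn to scale in bp from the peak centre in the direction of the gene, with peaks coloured by distance to the TSS and by LINE-1 and the central 300 bp shaded. The 5 peaks of Snai1 and Snai3 have a tick in the shaded part and the other 13 have none there.

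LINE-1 elements lay under 4 of the 18 peaks, where 14.2% of all peaks were on LINE-1. All 4 were beyond 5 kb of the TSS, where 36.4% of all peaks were on LINE-1 and 4 of the 9 peaks of the set were. They were both Zeb1 peaks, the Snai2 peak and the farther Twist1 peak. Their enrichment ran from 2.05 to 14.6, the whole range of the set, and LINE-1 peaks in the list had a median of 5.3 with quartiles of 3.05 and 9.75. Zeb1 and Snai2 had no other peak under their own symbol. The part that reads from other copies of the repeat have in these peaks was not tested.

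The wider EMT network was covered by lists of related genes. Leaving aside the Tcf/Lef namesakes and the miR-200 hairpins, 75 of 86 such genes had an assigned peak and 73 a promoter peak, where 43.2% of protein-coding genes had a promoter peak. The median of their highest promoter enrichment was 7.87. Among 12 other factors that induce EMT, 11 had a promoter peak with a median of 8.93, led by Foxc2 (13.5), a forkhead factor of mesenchyme, and Hmga2 (12.6), a chromatin protein downstream of TGF-β, while Klf8 had no assigned peak. Of 10 genes of the E protein network, 9 had a promoter peak with a median of 7.3. These were led by the cardiac factors Hand1 (11.2) and Hand2 (9.76), and Id2, an inhibitor of E proteins, had no assigned peak. Of 11 epithelial state factors, 9 had a promoter peak with a median of 6.43. These were led by Klf4 (11.5), also a factor of naive pluripotency, and Foxa1 (10.7), while Grhl3 and Elf5 had no assigned peak.

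Among the targets and signals, the share of genes with a promoter peak ran from 58.3% of the mesenchymal genes to 100% of the corepressors. Of 15 epithelial junction genes, 14 had a promoter peak with a median of 6.56. These were led by the keratin gene Krt8 (12.3) and the plakophilin gene Pkp3 (10.3), and Cldn4 had no assigned peak. Of 12 mesenchymal genes, 7 had a promoter peak with a median of 8.84. These were led by the integrin genes Itga5 (16.2) and Itgb1 (12.8), while Acta2, Sparc and S100a4 had no assigned peak. Of 15 upstream signals, 12 had a promoter peak with a median of 7.57. These were led by the ligand gene Tgfb3 (13.7) and the receptor gene Tgfbr2 (11.6), while Tgfbr1, Smad2 and Gsk3b had no assigned peak. All 11 corepressor genes had a promoter peak with a median of 8.58, led by Suz12 (10.6), of Polycomb complex PRC2, and Ajuba (9.93), a LIM protein that binds Snail.

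All 4 Tcf/Lef genes, the namesakes of Tcf3 and Tcf4, had a promoter peak, led by Lef1 (11.4) and Tcf7l2 (9.23). Tcf7l1, the former Tcf3 of ES cells, had 140 treatment and 51.9 input reads at its promoter peak and an enrichment of 5.3, close to the 5.6 at the promoter of the E protein gene Tcf3. Per kb, these promoter peaks had 37.3 and 24.2 treatment reads. Of the 5 miR-200 hairpin genes, Mir200b and Mir200c had 1 assigned peak each, of which that of Mir200c (5.15) was within 5 kb, and Mir200a, Mir141 and Mir429 had none under their own symbol. Hairpins of a cluster share 1 primary transcript, and the list gives each peak 1 symbol.

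**Figure D5:**
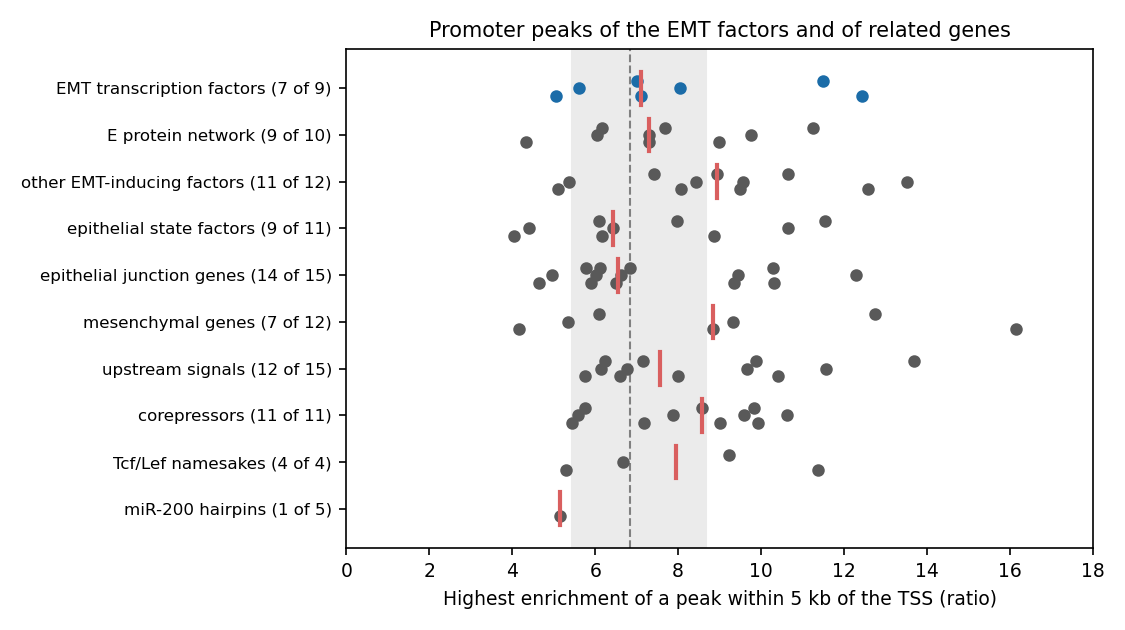
Highest enrichment of a peak within 5 kb of the TSS (x axis, the authors' mean ratio) for each gene, with 1 point per gene, the EMT transcription factors in blue and the lists of related genes in grey, and the number of genes with such a peak of the number in the list. Red bars are medians, and the dashed line and grey band are the median (6.84) and quartiles (5.44 and 8.66) of protein-coding genes with a promoter peak. The 7 EMT factors have a median of 7.1, inside the band.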

How the data were processed

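Zeb1 ChIP-seq was made in D3 mESC in GS. The authors trimmed reads, sampled an equal number from each library, used STAR for unique alignments to mm10 and Picard to drop duplicates, and ran PeakRanger with the input as background. Peaks seen in at least 2 of the 3 Zeb1 ChIP libraries were merged into 1 list, and Homer gave each peak a gene. The deposited read columns are a signal, which the authors averaged into 1 mean per peak for treatment and 1 for input. The deposited enrichment is a ratio, treatment against input, which the authors scaled by mapped reads before averaging. The authors required at least 20 treatment reads and an enrichment of 2, so the list ends at these values. The deposited p-value is 0 for every peak and was not used. Library depths are unknown from the list.

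Peaks were taken by gene symbol and compared with all peaks by counts, medians and the percent of peaks below. Promoter peaks had a centre within 5 kb of the TSS by the deposited distance. Positive distances lay downstream in the reference for all 18 peaks. Genes, start sites (curated transcripts) and sequence came from RefSeq on GRCm38.p6, the same assembly as mm10. Motifs were searched on both strands, after a check on simulated sequence. The genes, lists and naming rule were chosen with earlier results of these data known. The rule names the 9 factors, the 2 genes of each list with the highest promoter enrichment, and genes of a list with no assigned peak. It also names genes given a peak that overlaps a factor gene with 5 kb on either side. Tcf7l1 and Mir200b were named beyond it, after their values were seen. Python 3.11.15, pandas 2.3.3 and pysam 0.24.0 were used.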

Additional observations from a re-analysis of the deposited data

How the results depend on the processing

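The number of genes with a peak was 9 with enrichment of at least 5 (41.9% of protein-coding genes) and 8 by overlap with the gene and 5 kb on either side (57.1%), which leaves out Snai2. The number with a promoter peak was 7 within 1 kb (39.4%), within 10 kb (44.9%) and with enrichment of at least 5 (35.5%), and 8 by any curated TSS (51.5%). The 18 peaks stayed 18 after merging peaks closer than 1 kb, and 12, or 66.7%, had an enrichment of at least 5, where 74% of all peaks did. The median enrichment of 5.55 moved to 7.7 for the best peak of each gene, to 7.01 for promoter peaks and to 2.82 for the plain ratio of deposited treatment to input reads, where the median of all peaks was 3.13. The number of peaks with CACCTG, 13, was 11 in the central 1000 bp, 5 in the central 300 bp and 12 with the longer Zeb1 motif, which 76.8% of all peaks held. The smaller windows hold fewer bases by construction. For the longer motif, exact matches on both strands of the whole peak were counted here. The paper reports a lower share of peaks with this motif, and how its search was run is not stated.

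No paired analysis was possible because the list has 1 pooled value per peak. Leaving out single libraries needs values per library and was not run, and the spread between the 3 libraries is unknown. Peaks with fewer than 30 treatment reads rest on few reads. They were both assigned Zeb1 peaks (26 and 29.5), the Tcf3 peak 7722 bp upstream (25.5) and the Tcf4 peak 146117 bp upstream (25.5). The last of these had a high enrichment, 9.25, over 6.5 input reads.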

Other observations

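The decimals of the authors' means fell into a few classes. The smallest whole number whose product with both the treatment and the input mean was whole, within 0.01, was 2 for 12 of the 18 peaks, 7 for 5 and 5 for 1. The peaks at 7 were the promoter peaks of Snai1, Twist1, Twist2 and Snai3 and the LINE-1 peak of Twist1, and the peak at 5 was the nearer downstream peak of Snai1. Every peak of Zeb1, Zeb2, Snai2, Tcf3 and Tcf4 was at 2. Over the whole list, 34.7% of peaks were at 7, with a median of 58.1 treatment reads and an enrichment of 7.22, and 26.3% were at 2, with medians of 35.5 and 5.7. The paper's methods say that values per sample were averaged for each unified peak. They also describe recomputing and normalizing the reads of each sample, and whether the averaged values were whole reads is not stated. The printed reads are the authors' averages, and what the divisors stand for was not tested.

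The base composition of the set by distance to the TSS can be set beside that of the list. The peaks of the set within 5 kb had a median GC content of 59.2% and a median ratio of observed to expected CpG of 0.633, beside 56.8% and 0.643 for all peaks within 5 kb. Those beyond 5 kb had 49.4% and 0.315, beside 52.7% and 0.347 for all such peaks, so a higher GC content and CpG ratio near the TSS was a trait of the whole list. The Tcf4 promoter peak was the most AT-rich promoter peak of the set, with 48.5% GC, and still had a CpG ratio of 0.646.

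Beyond the Gm10125 peak at the Zeb1 promoter, 2 more peaks were assigned to Gm10125 although they lie past the 3′ end of Zeb1, 49633 and 50983 bp from the gene. The list places both on L1Md_F2 elements, and their enrichments were 3.13 and 6.7.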
